A study of Mus musculus with 16 samples.

Results

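Between-liver variation was described in 8 livers of mice in which Cyp7a1 had been targeted with CRISPR and which had eaten a Western diet for 8 weeks. The 8 libraries labelled Cyp7a1, of 16 libraries in the series, were chosen by their label, and the other 8 (control CRISPR, same diet and duration) were not used. Within the 8 livers, the genes with the largest standard deviation (SD) of log2(value + 1) were listed among genes with a mean of at least 100 normalized counts, and every gene was compared with 4 reference genes: Cyp7a1, Cyp8b1, Csad and Sqle. The livers carry the numbers 2, 5, 17, 19, 24, 26, 28 and 36, which are names and not an order. Strain, sex, age, the way the CRISPR components were delivered, the edited exon and the hour of collection are not stated in the labels. The labels do not state that each library came from a separate mouse, so every p-value measures the spread between these samples.

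Bile acids are made from cholesterol in hepatocytes. Cyp7a1 encodes the 7-alpha-hydroxylase that starts the main route, and Cyp8b1 encodes the 12-alpha-hydroxylase that sets how much of the product is cholic acid. Csad encodes the decarboxylase on the path from cysteine to taurine, with which mouse bile acids are conjugated. Sqle encodes squalene epoxidase, an early oxygen-requiring enzyme of cholesterol synthesis and a classic target of the sterol-sensing factor SREBP2, which is released when membrane cholesterol is low. Bile acids returning to the liver repress Cyp7a1 and Cyp8b1 through FXR (Nr1h4) and SHP (Nr0b2).

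The libraries held between 19610809 and 27357303 reads assigned to the listed genes, and the 10 most abundant genes took 18.9% to 21.3% of the normalized counts. Albumin (Alb), the main protein exported by hepatocytes, lay between 1253050 and 1848750 normalized counts, so every library carried the defining hepatocyte transcript at high level. The Y-linked Ddx3y was present in all 8, at 344 to 527 normalized counts. Liver 24 stood apart on the first principal component of the 9624 genes with a mean of at least 100, which held 41.3% of the variance, with a loading of 0.67 against -0.43 for liver 17 and -0.41 for liver 19. Most genes varied little: the median SD was 0.14 on the log2 scale (quartiles 0.10 and 0.20), where read counting alone would give a median of 0.061, and 293 genes (3.04%) had an SD of at least 0.5.

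The targeted gene was transcribed in every liver. Cyp7a1 measured 3069 normalized counts in liver 2, 5873 in liver 5, 5492 in liver 17, 5826 in liver 19, 3356 in liver 24, 4171 in liver 26, 5536 in liver 28 and 4292 in liver 36. Livers 5, 17, 19 and 28 formed a high set, between 5492 and 5873, and livers 2 and 24 the low end, a 1.91-fold range with an SD of 0.37 on the log2 scale. Counts per gene do not show whether a transcript carries an edit.

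Cyp8b1 measured 21245 normalized counts in liver 2, 26691 in liver 5, 29948 in liver 17, 30840 in liver 19, 18559 in liver 24, 21557 in liver 26, 24975 in liver 28 and 24378 in liver 36. The lowest livers were again 24 and 2, and the range was 1.66-fold (SD 0.25 on the log2 scale). Csad measured 14649 in liver 2, 10609 in liver 5, 13234 in liver 17, 12341 in liver 19, 12130 in liver 24, 12887 in liver 26, 13833 in liver 28 and 10912 in liver 36. This was the steadiest of the 4 genes, with a 1.38-fold range and an SD of 0.16, and 61.6% of the genes with a mean of at least 100 had a smaller SD.

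Sqle was the most variable of the 4, at 2276 normalized counts in liver 2, 654 in liver 5, 698 in liver 17, 815 in liver 19, 1062 in liver 24, 1112 in liver 26, 1310 in liver 28 and 147 in liver 36. Liver 36 lay far below the other 7 and liver 2 above them, giving a 15.5-fold range and an SD of 1.15, and 99.8% of genes had a smaller SD. The corresponding shares were 93.2% for Cyp7a1 and 84.7% for Cyp8b1.

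**Figure D1:**
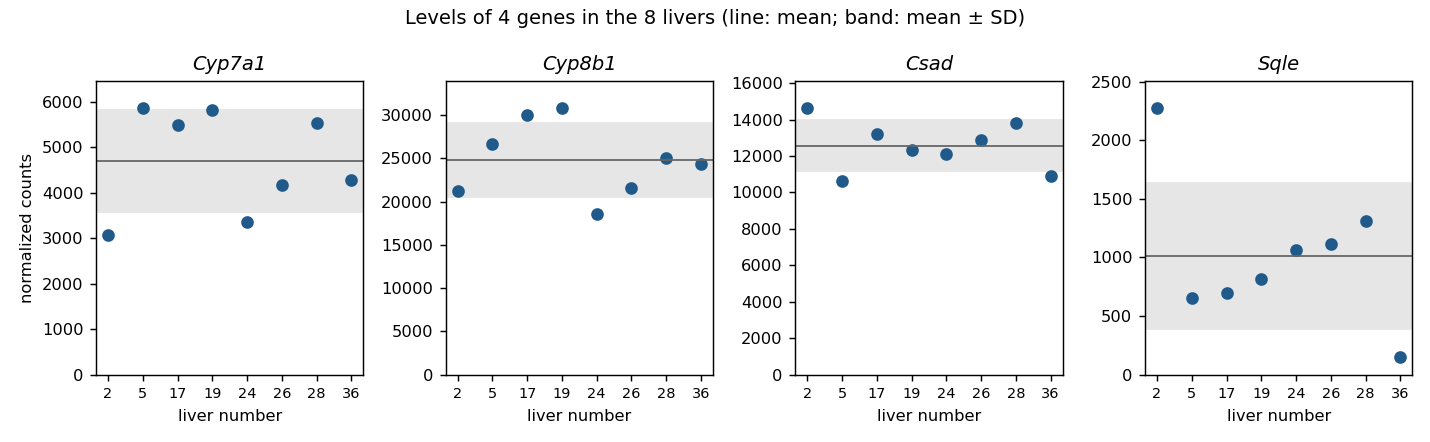
Normalized counts (vertical axes, from 0) of Cyp7a1, Cyp8b1, Csad and Sqle in each of the 8 livers (horizontal axes), with the mean as a line and the mean ± SD as a band. Livers 2 and 24 are lowest for Cyp7a1, and liver 36 is far below the others for Sqle, at 147 normalized counts.

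Of the 6 pairs among the 4 genes, 1 passed on r and 0 on rho. Over the 8 livers Cyp7a1 and Cyp8b1 varied together by r (Pearson r 0.87, two-sided exact permutation p = 0.00707, adjusted over 6 pairs 0.0424; Spearman rho 0.86, exact p = 0.0107, adjusted 0.0643), and r was 0.79 without livers 2 and 24, the farthest from the median of Cyp7a1. With 1 liver left out, the adjusted exact p missed 0.05 without liver 19 (0.0893), 24 (0.0673), 26 (0.0726), 28 (0.0667) or 36 (0.104), with r between 0.83 and 0.90. Csad and Sqle gave an r of 0.76 (exact permutation p = 0.0186, adjusted 0.0559) and a rho of 0.81 (exact p = 0.0218, adjusted 0.0653), with r at 0.83 without livers 2 and 5, so this pair missed the threshold.

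No relation of Cyp7a1 or Cyp8b1 with Csad or Sqle passed. Cyp7a1 with Sqle had an r of -0.28 (exact permutation p = 0.530, adjusted 0.636) and a rho of -0.50, and r was 0.40 without livers 2 and 24. With 1 liver left out, its r lay between 0.068 (without liver 2) and -0.75 (without liver 36, adjusted exact p = 0.106). Cyp7a1 with Csad had an r of -0.31 (adjusted exact p = 0.636), Cyp8b1 with Sqle an r of -0.30 (adjusted 0.636) and Cyp8b1 with Csad an r of -0.15 (adjusted 0.705). Without liver 36 the r of Cyp8b1 with Sqle was -0.61 (adjusted exact p = 0.215).

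Genes of cholesterol synthesis followed Sqle from liver to liver. In limma fits of log2(value + 1) on the log2 level of Sqle, 22 of 12614 genes were higher with Sqle (0.174%) and 2 were lower (0.0159%) at a Benjamini-Hochberg adjusted p under 0.05. Of 25 other genes on the list of cholesterol synthesis and uptake, 12 were among the higher and 0 among the lower. Their median r was 0.90, beside -0.0055 over all genes tested. The list was chosen with results of these data known and is no independent evidence. The calls fell most without liver 36, the lowest for Sqle, to 5 genes higher and 0 lower. They numbered 10 and 2 without liver 2, 14 and 1 without liver 26, and 15 and 1 without liver 17. Without liver 5 they numbered 16 and 3, without liver 28 19 and 1, without liver 24 20 and 5, and without liver 19 25 and 3.

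The 12 genes span the pathway from its first committed steps to its last. Hmgcs1, which makes HMG-CoA, measured 1096 normalized counts in liver 36, a median of 3215 and 6354 in liver 2, and its slope was 0.65 ± 0.062 (SE, log2 per log2 of Sqle; limma adjusted p = 0.00236, n = 8). Without liver 36 its slope was 0.92 (limma adjusted p = 0.00547).

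The mevalonate enzymes differed in how closely they followed Sqle. Mvd, the decarboxylase that makes isopentenyl diphosphate, measured 578 normalized counts in liver 2, 133 in liver 5, 160 in liver 17, 190 in liver 19, 250 in liver 24, 261 in liver 26, 291 in liver 28 and 37.6 in liver 36. Its order over the livers was that of Sqle in all 8 (rho 1), its slope was 0.98 ± 0.045 (limma adjusted p = 1.49e-05), and r was 0.99 without livers 2 and 36. The isomerase gene Idi1 had a slope of 0.89 ± 0.11 (limma adjusted p = 0.0140), but its range from 12.5 in liver 36 to 191 in liver 2 carried the relation, and r fell to 0.35 without those livers. The kinase genes Mvk and Pmvk had slopes of 0.43 and 0.41, and r without livers 2 and 36 was 0.35 for Mvk and 0.55 for Pmvk.

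Among later enzymes, Fdps, which builds farnesyl diphosphate, ranged from 223 normalized counts in liver 36 to 1261 in liver 2 (slope 0.62 ± 0.047, limma adjusted p = 0.000433). Nsdhl, a sterol 4-demethylation enzyme, ranged from 470 to 2685 in the same livers (slope 0.61 ± 0.045, limma adjusted p = 0.000433). The lanosterol demethylase Cyp51 ranged from 809 to 4441 (slope 0.59 ± 0.053, limma adjusted p = 0.00157), and the 4-methylsterol oxidase Msmo1 from 1451 to 5095 (slope 0.46 ± 0.057, limma adjusted p = 0.0128). Lss, which closes the sterol ring, and Dhcr7, which catalyses a last step, passed with slopes of 0.47 and 0.31. Without liver 36 the limma adjusted p was 0.238 for Fdps, 0.223 for Nsdhl, 0.223 for Lss and 0.343 for Dhcr7. It was 0.0258 for Cyp51 and 0.0305 for Msmo1, which still passed. Liver 2 held the highest and liver 36 the lowest value for each gene of this paragraph.

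Of the list as a whole, liver 2 was highest for 22 of 26 genes, beside 13.2% of the 9624 genes with a mean of at least 100. Liver 36 was lowest for 23 of 26, beside 13.5% of those genes. The summed level ran from 53205 normalized counts in liver 36 to 105380 in liver 2. The genes that did not pass included regulators of the pathway. Insig1, which holds back SREBP2, ranged from 1201 normalized counts in liver 36 to 3185 in liver 2 (r 0.89, limma adjusted p = 0.0760). Srebf2 itself, which encodes SREBP2, ranged only from 1087 to 1725 (r 0.73, limma adjusted p = 0.472), and Ebp, a sterol isomerase, gave an r of -0.07 with values from 3591 to 5032. Like Mvk, Pmvk, Lss and Dhcr7, these genes were named after their values were seen.

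**Figure D2:**
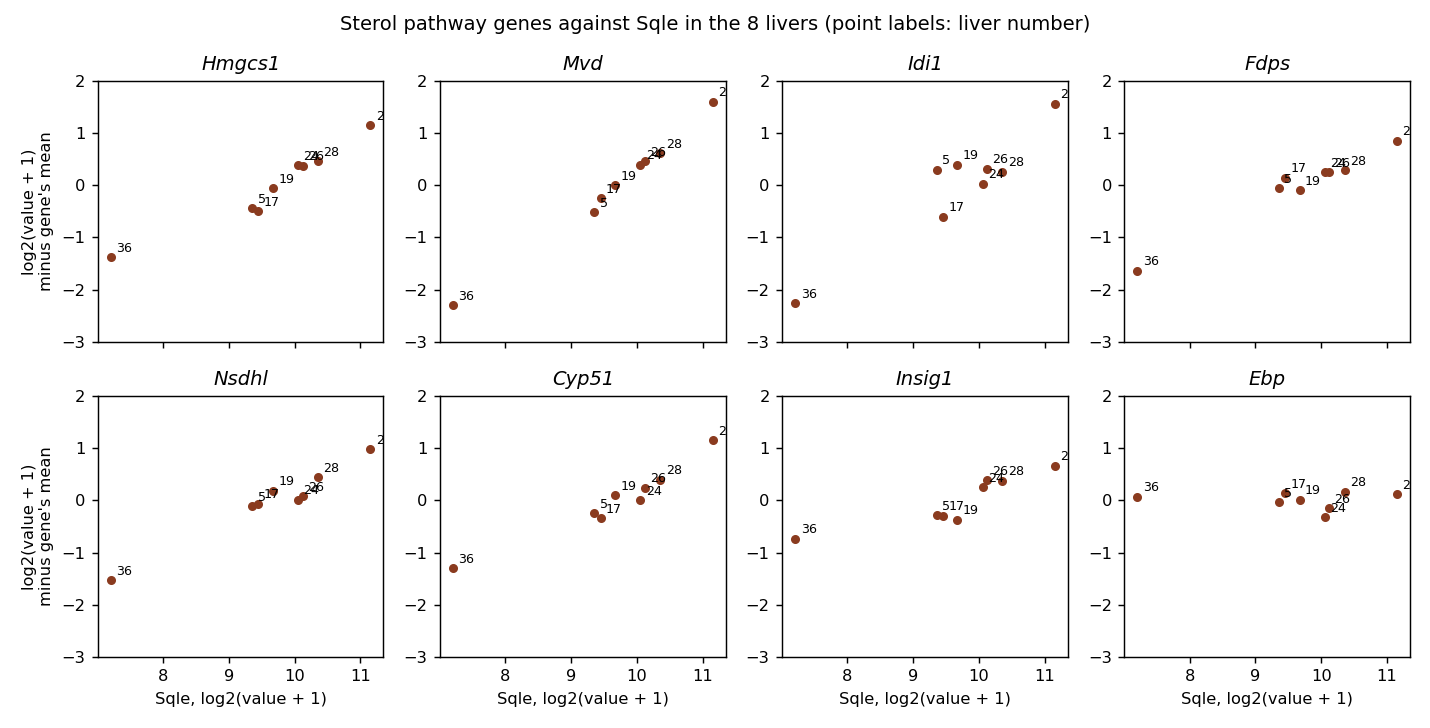
Each panel plots 1 gene of the sterol pathway (vertical axis, log2(value + 1) minus the gene's mean) against Sqle (horizontal axis, log2(value + 1)) in the 8 livers, labelled by number. Mvd lies on a line through all 8 livers, Idi1 depends on livers 2 and 36, and Ebp is flat (r -0.07).

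Promoter sequences are shown for 4 sterol genes whose relation to Sqle still passed without liver 36, since genes that move together may be compared at their starts. The RefSeq table for GRCm38.p6 held 10 of 13 genes (Sqle and the 12 called with it), and Sqle and Fdps had no entry. Each line gives the 150 bases before the RefSeq transcription start, 5′ to 3′ on the gene's strand. Capitals mark CCAAT on either strand (ATTGG on the other) and the sterol regulatory element TCACNCCAC on either strand. In the GENCODE M21 annotation Msmo1 reaches to 64733792 and Cyp51 to 4104746. By that annotation the Msmo1 window and part of the Cyp51 window lie inside the gene. The windows were chr8:122443423-122443572 (minus strand) for Mvd, chr13:119690201-119690350 (plus) for Hmgcs1, chr5:4104698-4104847 (minus) for Cyp51 and chr8:64733579-64733728 (minus) for Msmo1.
Mvd: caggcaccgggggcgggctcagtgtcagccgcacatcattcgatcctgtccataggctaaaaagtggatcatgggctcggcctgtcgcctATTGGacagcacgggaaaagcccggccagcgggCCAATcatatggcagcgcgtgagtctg
Hmgcs1: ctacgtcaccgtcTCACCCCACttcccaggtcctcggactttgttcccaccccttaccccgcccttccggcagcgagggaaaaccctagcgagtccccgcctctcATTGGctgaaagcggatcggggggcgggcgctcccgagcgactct
Cyp51: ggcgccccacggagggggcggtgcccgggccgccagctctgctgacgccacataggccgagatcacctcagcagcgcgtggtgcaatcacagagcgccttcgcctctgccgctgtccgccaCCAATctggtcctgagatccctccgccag
Msmo1: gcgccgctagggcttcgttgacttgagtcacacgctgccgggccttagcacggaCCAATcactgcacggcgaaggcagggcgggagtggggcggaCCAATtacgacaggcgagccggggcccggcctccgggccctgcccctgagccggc
The CCAAT letters occurred in all 10 of the matched genes, beside 27.7% of 27025 gene symbols with a window of this length. These symbols were not limited to the genes tested in these livers, from which the 10 came. TCACNCCAC occurred in 1 of the 10, Hmgcs1, beside 0.755% of all symbols. The third motif searched, CACGTG on either strand, occurred in 0 of the 10, beside 4.92% of all symbols, and is not marked. The marked motifs do not overlap each other. A match of letters is a description and not a binding site.

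Outside the sterol list, 10 protein-coding or pseudogene rows were higher with Sqle and 2 genes were lower. Rdh11, a retinol dehydrogenase, ranged from 489 normalized counts in liver 36 to 2207 in liver 2 (slope 0.54 ± 0.035, limma adjusted p = 0.000208), and with Mvd, Hmgcs1 and Cyp51 it was 1 of the 4 genes that passed in every alternative fit. Acss2, which makes acetyl-CoA from acetate, ranged from 2901 to 9058 (slope 0.42 ± 0.057, limma adjusted p = 0.0197). It was the only called gene of 20 on the fatty acid synthesis list, whose median r with Sqle was 0.66. Vegfb, a growth factor gene, and Chrna4, a nicotinic receptor subunit gene, had slopes of 0.32 and 1.25. The 2 processed pseudogenes Gm5873 and Gm3571 passed as well, and their counts may share reads with parent genes of near-identical sequence.

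The 2 genes lower with Sqle were Gm3839, annotated as protein-coding, at 5.24 to 91.7 normalized counts, and Alas2, the erythroid enzyme that starts haem synthesis. Alas2 ranged from 1653 in liver 2 to 3191 in liver 36 (slope -0.24 ± 0.035, limma adjusted p = 0.0381). Haemoglobin transcripts did not share that order, since Hbb-bs was lowest in liver 19, at 182, and highest in liver 24, at 1977. Neither Alas2 nor Gm3839 passed without liver 36. No gene on the lists of bile acid synthesis (18 tested), its regulators (11 tested) or taurine metabolism (18 tested) passed with Sqle.

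Many more genes varied with Cyp8b1: 461 of 12614 were higher with it (3.65%) and 447 lower (3.54%) at a limma adjusted p under 0.05. Livers 17 and 19 held the highest and liver 24 the lowest Cyp8b1 values. The same livers stood at opposite ends of the first principal component, with loadings of -0.43, -0.41 and 0.67. That component held 41.3% of the variance, so Cyp8b1 lay along the main difference between these livers. Whether the called genes are tied to Cyp8b1 beyond that component was not tested. Leaving out 1 liver gave 291 higher and 286 lower without liver 2, 7 and 6 without liver 17, 45 and 22 without liver 19, 173 and 82 without liver 24, 125 and 75 without liver 26, and 297 and 314 without liver 28. Without liver 5 they numbered 414 and 363, and without liver 36 they rose to 625 and 561. All 908 genes kept the sign of their slope in each of those fits. These reuse livers in which the genes were called, so kept signs are no independent evidence. After quantile normalization 8 genes were higher and 0 lower. Of 68 called genes chosen for naming, among them most of those described in the next paragraphs, all 68 lost their call after quantile normalization and 34 lost it with the ribosomal row Gm42418 as a covariate, and 0 reversed.

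Some genes of bile acid synthesis were higher with Cyp8b1. Of 17 other tested genes on the list of bile acid synthesis and conjugation, 4 were higher with Cyp8b1 and 0 lower, and the median r was 0.75 beside -0.028 over all genes. Over all genes tested, 3.65% were higher and 3.54% lower. The slopes on Cyp8b1 also differed with expression level, for which the list and all genes are not matched. Akr1d1, the reductase that gives bile acids their bent ring, measured 3746 normalized counts in liver 2, 5442 in liver 5, 5336 in liver 17, 5131 in liver 19, 2874 in liver 24, 3481 in liver 26, 5395 in liver 28 and 4206 in liver 36. Livers 5, 17, 19 and 28 were the high set here as they were for Cyp7a1, and the slope was 1.24 ± 0.21 (limma adjusted p = 0.0194). Cyp7a1 itself had a slope of 1.27 ± 0.24 (limma adjusted p = 0.0218), Cyp27a1, the side-chain hydroxylase, 0.82 ± 0.18 (limma adjusted p = 0.0278), and Baat, which joins bile acids to taurine, 0.52 ± 0.11 (limma adjusted p = 0.0297). With Gm42418 as a covariate the limma adjusted p was 0.0671 for Cyp7a1 and 0.0641 for Cyp27a1.

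Of 11 regulators, the bile acid receptor gene Nr1h4 (3980 to 5157 normalized counts, slope 0.52 ± 0.13, limma adjusted p = 0.0470) and the hepatocyte factor gene Hnf4a (12551 to 18795, slope 0.74 ± 0.18, limma adjusted p = 0.0394) were higher with Cyp8b1. Nr1h4 lost its call in 9 of 15 alternative fits, including edgeR (adjusted p = 0.0521), and Hnf4a in 8 of 15. Nr0b2, the FXR target that represses both hydroxylases, ranged from 90.5 in liver 17 to 269 in liver 26 and did not pass. Of 12 transport genes, Slco1a1, an organic anion carrier, passed, with 1135 in liver 24 and 4711 in liver 5. Over all genes tested, 3.65% were higher with Cyp8b1 and 3.54% lower, so 1 of 12 is not read as a result about transport genes.

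Methionine and cysteine genes also passed. On the list of taurine and cysteine metabolism, 6 of 18 genes were higher with Cyp8b1 and 1 was lower, beside 3.65% and 3.54% of all genes tested. Bhmt, which remethylates homocysteine, ranged from 30508 normalized counts in liver 24 to 63298 in liver 17 (slope 1.59 ± 0.22, limma adjusted p = 0.0122), and Ahcy, which releases homocysteine, from 9132 to 18560 in the same livers (slope 1.32 ± 0.24, limma adjusted p = 0.0197). Mat1a, Cth, Cdo1 and Fmo1 were the other 4 higher genes. Gclc, which starts glutathione synthesis, was the lower one, at 2990 in liver 17 and 4733 in liver 26. Csad, on the same list, gave no such relation (r -0.15).

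Genes of lipid metabolism passed in both directions, beside 3.65% higher and 3.54% lower with Cyp8b1 over all genes tested. Of 27 genes of fatty acid oxidation, 5 were higher with Cyp8b1 and 0 lower, among them Cpt1a, the gate of mitochondrial uptake, with 19480 normalized counts in liver 24 and 32798 in liver 19 (slope 0.92 ± 0.15, limma adjusted p = 0.0190). Of 20 genes of fatty acid synthesis, 3 were lower and 1 higher. The lower ones were Elovl6, an elongase (1182 in liver 17 to 3708 in liver 2; slope -2.07 ± 0.32, limma adjusted p = 0.0148), Acaca and Fasn, and the higher one was Dgat2, which completes triglycerides. Of 16 lipid droplet genes, 2 were higher (Plin5 and G0s2) and 3 lower (Cd36, Fabp4 and Lpl). The difference between these lists was not tested. The fasting-induced genes Tat, Foxo1 and Lpin1 were 3 of 19 on their list and were all higher.

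Clock genes passed in both directions, 4 of 20 higher and 4 lower, beside 3.65% and 3.54% of all genes tested. Arntl, which encodes BMAL1, ranged from 34.9 normalized counts in liver 26 to 193 in liver 17 and was higher with Cyp8b1, as were Cry1 and Nfil3. Dbp ranged from 971 in liver 17 to 2859 in liver 26, and Nr1d1, which encodes REV-ERB-alpha, from 476 in liver 17 to 1660 in liver 24, and both were lower, as were Nr1d2 and Bhlhe41. Arntl and Dbp stood in opposite order in the extreme livers 17 and 26. Of 23 genes of the major urinary proteins and the growth hormone axis, 8 were higher and 0 lower, led by Igfals (1227 in liver 26 to 2517 in liver 17) and Elovl3 (1851 to 4435). The major urinary protein genes are near-identical copies, so counts of single members are uncertain.

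Markers of some other cell types were lower with Cyp8b1. Over all genes tested, 3.54% were lower and 3.65% higher. Of 18 stellate cell and fibrosis markers, 0 were higher and 7 lower, 6 of them collagen genes, and their median r was -0.73. Col3a1, a fibrillar collagen gene, measured 2848 normalized counts in liver 2, 1580 in liver 5, 995 in liver 17, 1116 in liver 19, 3767 in liver 24, 2862 in liver 26, 852 in liver 28 and 1943 in liver 36 (slope -2.72 ± 0.50, limma adjusted p = 0.0205). Livers 24, 26 and 2, the 3 lowest for Cyp8b1, were the 3 highest for Col3a1. Of 11 cholangiocyte markers 4 were lower, and of 12 recruited macrophage markers 2, with Spp1 on both lists, while 0 of 13 Kupffer cell markers (median r -0.42) and 0 of 13 sinusoidal endothelial markers (median r -0.069) passed. Of 10 lymphocyte markers, Cd4 was higher (slope 1.67 ± 0.44, limma adjusted p = 0.0470) and Ptprc lower (slope -2.29 ± 0.59, limma adjusted p = 0.0467). Cd4 lost its call in 9 of 14 alternative fits, including edgeR (adjusted p = 0.0518). Ptprc lost its call in 7 of 15, including the fit without liver 24. It measured 586 in liver 24 and 119 to 231 elsewhere.

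Of 12 hepatocyte markers, 4 were higher and 0 lower (median r 0.71), beside 3.65% and 3.54% of all genes tested. The summed stellate list ran from 16684 normalized counts in liver 28 to 27046 in liver 24, the cholangiocyte list from 7369 in liver 17 to 12711 in liver 26 and the recruited macrophage list from 3022 in liver 17 to 7464 in liver 24. In bulk tissue fewer cells of a type and less RNA per cell cannot be told apart, and the part of cell makeup in the calls with Cyp8b1 was not tested.

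The direction of the slopes on Cyp8b1 differed with expression level, and neither of the library properties given here passed a test against Cyp8b1. The median slope was -0.40 in the lowest sixth of genes by mean level and 0.18 in the highest sixth. That highest sixth held 2103 genes, with 228 of the higher and 49 of the lower calls. The shares and median r over all genes given above are not matched for level. The part of level in the list counts was not tested. Mitochondrially encoded genes took 4.04% of counts in liver 17 and 6.41% in liver 24, and this share gave an r of -0.83 with Cyp8b1 (n = 8, exact permutation p = 0.00883, adjusted over 12 relations 0.106; r -0.57 without the 2 extreme livers). Gm42418, a row that overlaps a ribosomal RNA repeat, ranged from 39256 normalized counts in liver 26 to 525060 in liver 19 (r 0.63 with Cyp8b1, adjusted exact p = 0.397). With Gm42418 as a covariate, added after seeing the data, 134 genes were higher and 437 lower, of which 270 were among the 908.

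**Figure D3:**
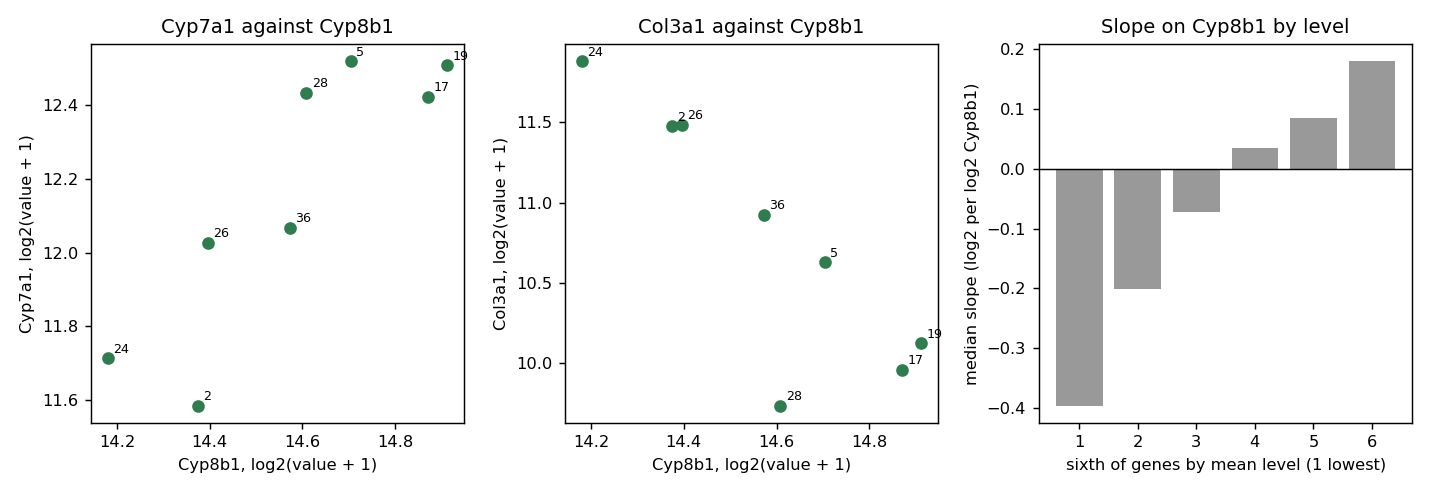
The left and middle panels plot Cyp7a1 and Col3a1 against Cyp8b1 (both axes log2(value + 1)) in the 8 livers, labelled by number, and the right panel gives the median slope on Cyp8b1 in sixths of genes by mean level. Cyp7a1 rises with Cyp8b1 (r 0.87), Col3a1 falls (r -0.87), and the median slope runs from -0.40 in the lowest sixth to 0.18 in the highest.

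The single genes closest to Cyp8b1 were not bile acid genes. Cdc42bpb, a kinase gene, ranged from 2387 normalized counts in liver 24 to 3242 in liver 19 (r 0.99, limma adjusted p = 0.0148), followed by Atg16l1, an autophagy gene, and Zmiz2. On the other side Tpm4, a tropomyosin gene, ranged from 286 in liver 17 to 656 in liver 24 (r -0.99, slope -1.60 ± 0.13, limma adjusted p = 0.00289), followed by Plekhf2 and Ap3s1. Of the 16 genes with the 8 highest and 8 lowest r, Smg5, Ppp6r2 and Pold3 did not pass, with limma adjusted p of 0.0506, 0.0616 and 0.0747.

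With Cyp7a1 as the reference no gene passed: limma called 0 of 12614 higher (0.0%) and 0 lower (0.0%), with 2253 genes at an unadjusted p under 0.05, and edgeR's quasi-likelihood test on recovered reads also called 0. The smallest adjusted p, 0.0688, belonged to Tm4sf4, a tetraspanin-like membrane protein gene. Tm4sf4 measured 1883 normalized counts in liver 2, 1256 in liver 5, 1248 in liver 17, 1273 in liver 19, 1759 in liver 24, 1617 in liver 26, 1243 in liver 28 and 1567 in liver 36 (r -0.99). The livers split as for Cyp7a1 but in the reverse sense, with 5, 17, 19 and 28 between 1243 and 1273. Without liver 2, 13 genes were higher and 36 lower, and without liver 36, 1 and 2.

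The nearest genes in the other direction were Golgb1, a Golgi matrix protein gene (1510 normalized counts in liver 2 to 2061 in liver 19; r 0.98, limma adjusted p = 0.0941), Polr3f and Helb. On the lists of bile acid synthesis, its regulators and taurine metabolism, Nr1h4 (r 0.94, limma adjusted p = 0.104), Bhmt (r 0.89, limma adjusted p = 0.0941) and Akr1d1 (r 0.89, limma adjusted p = 0.0941) had the highest r of their lists. Members of other lists were as close, such as the glutathione transferase gene Gsta1 (r -0.94, limma adjusted p = 0.0912). The bile acid synthesis list had a median r of 0.59 with Cyp7a1 over 17 genes and the stellate list -0.69 over 18, beside -0.023 over all genes. Since Cyp7a1 and Cyp8b1 were measured in the same 8 livers and varied together by r, these values and those for Cyp8b1 are not separate observations.

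With Csad as the reference limma called 0 genes higher (0.0%) and 0 lower (0.0%), with 446 of 12614 (3.54%) at an unadjusted p under 0.05, and edgeR also called 0. The smallest adjusted p was 0.979, for Fdft1, squalene synthase. Fdft1 measured 3044 normalized counts in liver 2, 1564 in liver 5, 1893 in liver 17, 1811 in liver 19, 1677 in liver 24, 2193 in liver 26, 2494 in liver 28 and 1432 in liver 36 (r 0.92). All 26 genes of cholesterol synthesis and uptake had a positive r with Csad, with a median of 0.76 beside -0.0030 over all genes, though 0 of them passed. Most of these genes also followed Sqle (median r 0.90 over 25 genes). Their r with Csad are therefore not 26 separate observations, nor separate from the pair of Csad and Sqle.

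The highest r with Csad belonged to Psma2, a proteasome subunit gene (1128 in liver 5 to 1413 in liver 28; r 0.98, limma adjusted p = 0.999). Abca1, the cholesterol exporter, had 1 of the 8 lowest (1314 in liver 2 to 1799 in liver 5; r -0.92, limma adjusted p = 0.999). On the taurine list itself 0 of 17 other genes passed, and the largest r in size were those of Ado (-0.67), Gss (0.37) and Cbs (-0.37).

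**Figure D4:**
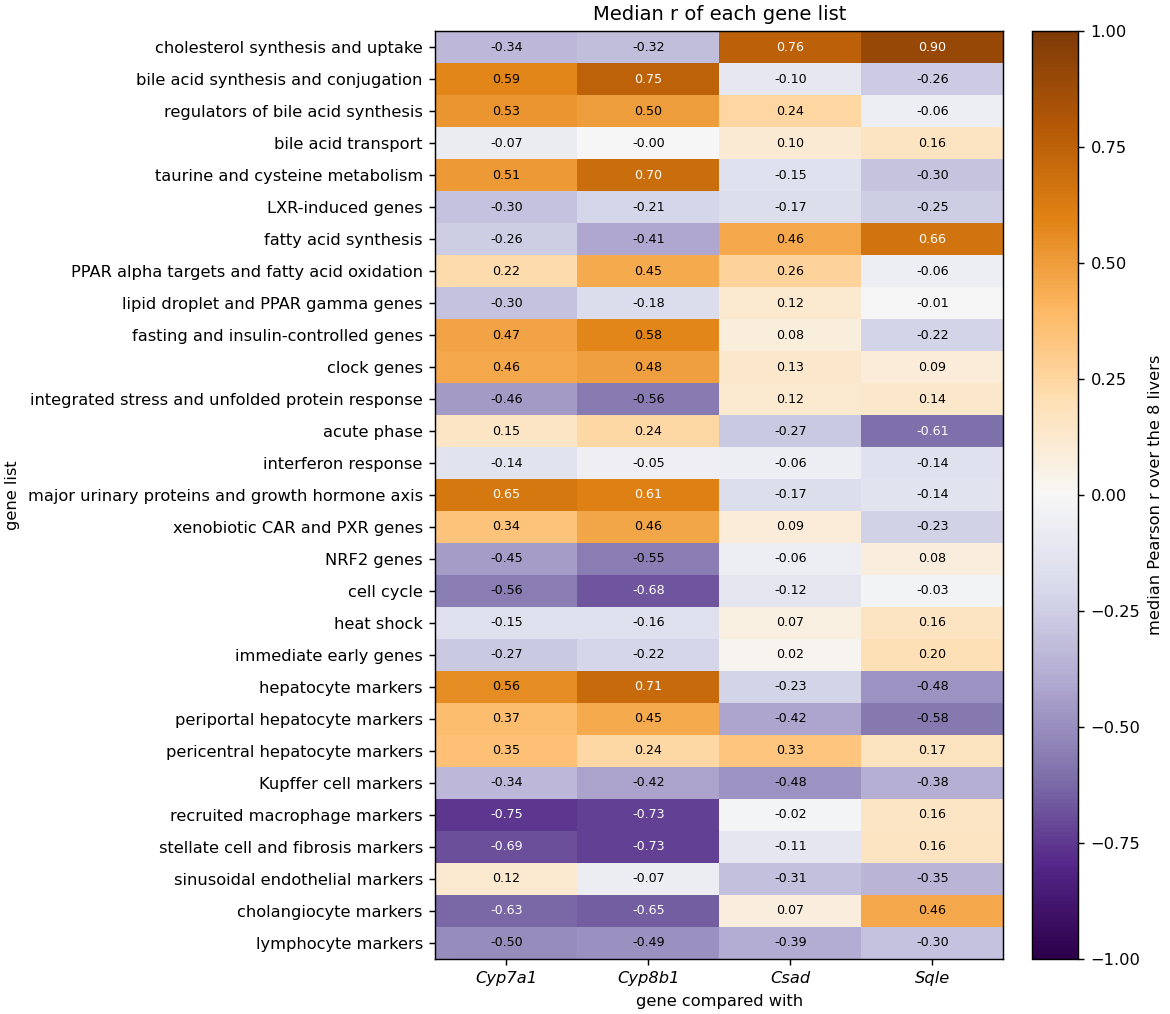
Median Pearson r over the 8 livers between the members of 29 gene lists (rows, those with at least 10 members in the table) and 4 reference genes (columns), on a scale from -1 to 1. Cholesterol synthesis is at 0.90 with Sqle and 0.76 with Csad, and the stellate list is at -0.73 with Cyp8b1.

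The 24 genes with the largest SD were chosen by that value, so the following is description without a test. They spanned SD 2.03 for Marco down to 1.115 for Ppp1r3g, and Hba-a2 lay just outside at 1.114. The SD that counting alone would give was at most 0.245 in these genes. Another 9 rows with as large an SD (ribosomal, predicted or pseudogene rows such as Gm42418) were left out of these 24, 1 of them (Mug4-ps, SD 2.06) with a larger SD than Marco. Liver 24 was highest for 8 of the 24 genes, beside 18.6% of all 9624 genes, and liver 19 was lowest for 7, beside 11.4%.

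Macrophage and other leukocyte genes formed a block that was high in 1 liver. Marco, a scavenger receptor gene of Kupffer cells, measured 49.8 normalized counts in liver 2, 229 in liver 5, 133 in liver 17, 62.2 in liver 19, 3916 in liver 24, 114 in liver 26, 80.2 in liver 28 and 432 in liver 36. Spic, a factor of iron-recycling macrophages, measured 952 in liver 24 and 25.1 to 73.3 in the other 7. Adgre1, which encodes F4/80, measured 3537 in liver 24 and 298 to 691 elsewhere.

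The lectin gene Clec4n (721 in liver 24, 39.3 to 75.04 elsewhere), the sialic acid receptor gene Siglece (747 against 59.98 to 198) and the PI3-kinase subunit gene Pik3r5 (477 against 38.5 to 69.9) had the same shape. In none of the 6 did liver 24 overlap the others, but they were chosen by their SD, so this gap is no independent evidence. Spic, Clec4n and Pik3r5 stayed under 100 in every other liver and reached the mean of 100 only through liver 24. Without liver 24, Spic, Clec4n, Pik3r5, Siglece and Adgre1 were no longer among the 24 genes with the largest SD. Of 13 Kupffer cell markers 11 were highest in liver 24, beside 18.6% of the 9624 genes with a mean of at least 100. These 11 include Marco and Adgre1, already chosen by their SD, so the count is not separate from the genes above. The summed level of the 13 ran from 10486 in liver 19 to 32343 in liver 24. Clec4f, the most specific Kupffer marker on the list, measured 1812 in liver 24, within the range of 1419 to 2589 over all livers. Cd5l (8124 in liver 24, 1413 to 2993 elsewhere) carried part of the sum, and Timd4 stood at 263 in liver 24. Markers of other leukocytes were also raised in this liver. Of 10 lymphocyte markers 5 were highest in liver 24. The only neutrophil marker in the table, Csf3r, measured 224 there and 55.6 to 104 elsewhere. The part of cell number in these values was not tested.

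Growth-hormone-dependent and sex-biased liver genes were the second block. Hsd3b5, a male-predominant steroid enzyme gene, ranged from 21.7 normalized counts in liver 24 through a median of 219.8 to 1250 in liver 5. Mup7 ranged from 818 in liver 24 to 15996 in liver 5, and Mup17 from 319 in liver 36 to 4043 in liver 5. Liver 5 was thus highest for all 3 and for Bcl6, a repressor gene that growth hormone lowers, which measured 271 in liver 2, 2626 in liver 5, 212 in liver 17, 217 in liver 19, 753 in liver 24, 1084 in liver 26, 2062 in liver 28 and 628 in liver 36. Cish, which growth hormone signalling induces, was low in livers 5, 26 and 28 (114, 147 and 161) and high in livers 2 and 36 (770 and 775). Cish was named after its values were seen.

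Cyp2c69, a cytochrome P450 gene of a family with close copies, was split: 322 in liver 2 and 487 in liver 28, against 14.9 to 49.7 in the other 6. Selenbp2, a selenium-binding protein gene, was high in livers 36 (6591) and 5 (5023) and measured 702 to 2498 elsewhere. Hsd3b5 and Mup7 were also among the 8 genes of their list called higher with Cyp8b1, at slopes of 5.87 ± 1.25 and 5.13 ± 1.13 (limma adjusted p = 0.0280 and 0.0310).

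Of the sterol genes, Sqle and Mvd (SD 1.15 and 1.13) were among the 24, together with Chrna4 (10.98 normalized counts in liver 36 to 368 in liver 2), which was called with Sqle but kept that call in only 3 of 15 alternative fits (limma adjusted p = 0.650 without liver 36; edgeR adjusted p = 0.126). Cdkn1a and Gadd45g were both highest in livers 17 and 19. Cdkn1a, which encodes the cell cycle inhibitor p21, measured 2001 in liver 17 and 1399 in liver 19 and 120 to 428 in the other 6. Gadd45g measured 1056 and 1049 in those livers and 898 in liver 36, against 122 to 355 elsewhere. Gadd45a, of the same family and named after its values were seen, ran the other way and was lower with Cyp8b1 (slope -2.09 ± 0.55, limma adjusted p = 0.0472).

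The glycogen-targeting subunit gene Ppp1r3c was highest in livers 19 (1647) and 17 (1391) and lowest in liver 2 (137), whereas Ppp1r3g, another subunit of the same phosphatase, was highest in livers 26 (336) and 2 (314) and lowest in liver 19 (41.4). The 2 subunits thus stood in opposite order at their extremes. Foxq1, a forkhead factor gene, measured 1125 in liver 36, 415 in liver 2 and 112 to 265 elsewhere.

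Lars2 and Mir6236 were both lowest in liver 26 (1046 and 125 normalized counts), next lowest in liver 2 (1602 and 234) and highest in liver 19 (8268 and 1389). Lars2 encodes mitochondrial leucyl-tRNA synthetase. Gm42418 had the same lowest 2 and highest livers, and whether reads from ribosomal RNA entered the Lars2 and Mir6236 rows was not tested. The haemoglobin genes Hbb-bs and Hba-a1 were lowest in liver 19 (182 and 41.4) and highest in liver 24 (1977 and 457). Their transcripts come from red blood cells and their precursors.

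**Figure D5:**
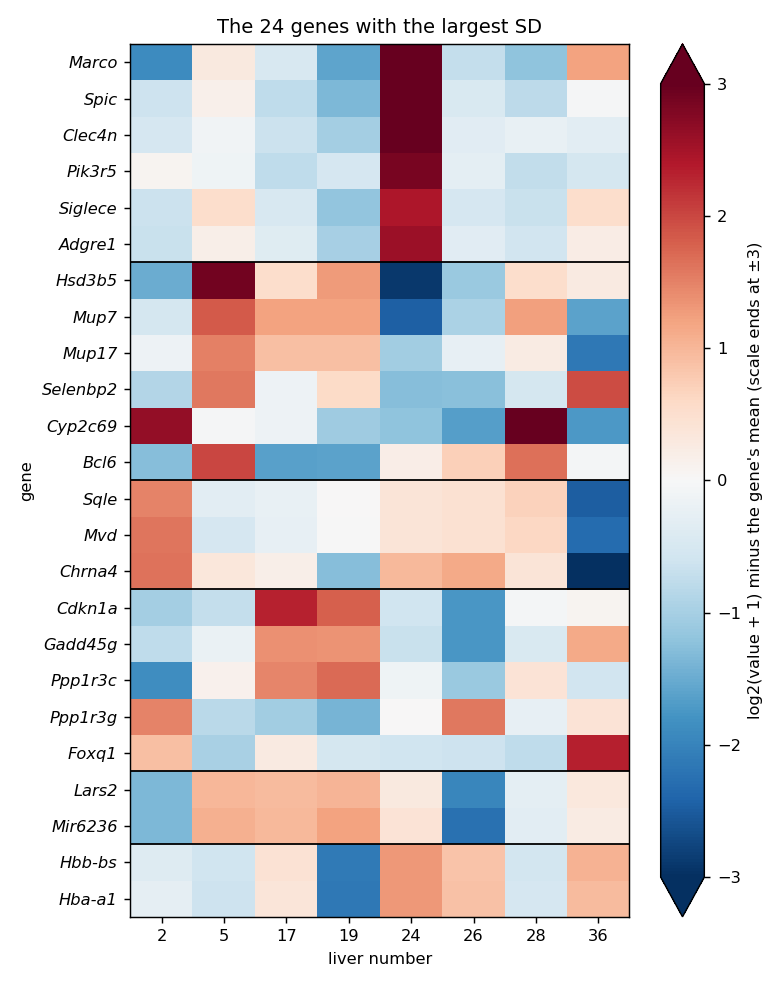
Heat map of the 24 genes with the largest SD (rows) in the 8 livers (columns), coloured by log2(value + 1) minus the gene's mean on a scale that ends at ±3. The top block of 6 macrophage and other leukocyte genes is high in liver 24, Sqle, Mvd and Chrna4 are low in liver 36, and Cdkn1a is high in livers 17 and 19.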

How the data were processed

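Per the labels' protocols, RNA was extracted from flash-frozen liver with the RNeasy Mini Kit, and libraries were made from 800 ng of RNA with the KAPA RNA HyperPrep kit. The submitters' processing notes name Trim Galore 0.6.10, STAR 2.7.11a, featureCounts, DESeq2, R 3.6.3 and the mm10 build. The authors deposited 1 table of normalized counts for all 16 libraries, used here as a signal per gene; its values are whole multiples of 1 read (0.776 to 1.09 normalized counts per read), and 100% of values under 8000 came out whole within 0.05 of a read, which gave each library's depth. Strand handling in counting is not given in the sources used here.

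Of 12618 genes, 1 (Ccne2) held a text cell and was left out, 19 symbols that had become dates were replaced from their gene IDs, and 12594 IDs matched GENCODE M21. The 8 Cyp7a1 columns were analysed on the log2(value + 1) scale, where differences of low genes are understated. limma 3.58.1 (R 4.3.3, trended prior) fitted each gene with a mean of at least 10 on each reference gene, with Benjamini-Hochberg adjustment and a threshold of 0.05. Pairs of reference genes used exact permutation over 40320 pairings. Other settings tried were edgeR 4.0.16 on recovered reads, array weights, quantile normalization, each liver left out, a minimum mean of 100 or none, a pseudocount of 8, and Gm42418 as a covariate. The fits were tested on simulated data.

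Named genes were the 4 reference genes, the 24 with the largest SD, for each reference gene the 8 highest and 8 lowest r, up to 3 passing members of each list, and each list's most variable member; predicted genes, pseudogenes and ribosomal rows were left out of the SD and r parts. Other members passing on a list were named after their values were seen. Members and lists were chosen with earlier results of these data known. A few members of the lists are counted but not reported here by name.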

Additional observations from a re-analysis of the deposited data

Results flagged for a closer look

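In each of 62 sets of 8 values (the named genes, Gm42418, list scores and read totals) the gap between the most extreme liver and its neighbour was set against the whole range, with Dixon's 95% critical value for 8 values as the limit. For genes the gap and the range were taken on log2(value + 1), not on the normalized counts printed below. Chance passes this limit in about 1 of 20 sets that were not chosen for their spread. Of the 62, 6 passed, and all 6 are genes of the 24 chosen for the largest SD in these livers, so their number is not set against that rate. Sqle passed on the low side, at 146.62 normalized counts in liver 36 against 653.58 to 2276.5 in the others. The other 5 were high in liver 24. Spic stood at 952.49 normalized counts there, Clec4n at 720.83 and Pik3r5 at 476.66. Siglece stood at 747.49 and Adgre1, the F4/80 gene, at 3537.5. These 5 genes belong to the block of macrophage and other leukocyte genes and are not independent of each other. Marco, first of the 24 by SD, did not pass on the log2 scale, since liver 36 was also raised.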

How the results depend on the processing

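Leaving out 1 liver at a time gave 7 to 625 genes higher and 6 to 561 lower with Cyp8b1, 5 to 25 higher and 0 to 5 lower with Sqle, and 0 to 13 higher and 0 to 36 lower with Cyp7a1. Quantile normalization left 8 higher and 0 lower with Cyp8b1, and adding Gm42418 to the fit, a choice made after seeing the data, left 134 higher. Genes lower with Sqle numbered 1 at a minimum mean of 100, 4 after quantile normalization and 4 by edgeR. The causes were not tested, though 7 livers also give fewer degrees of freedom. No gene passed with Csad in any fit. The r of Cyp7a1 with Cyp8b1 stayed between 0.83 and 0.90 with a liver left out. The r of Csad with Sqle was 0.79 and past the threshold after quantile normalization (adjusted exact p = 0.0318), and 0.66 to 0.88 with a liver left out, past the threshold without liver 5 (adjusted exact p = 0.0327) or liver 17 (0.0488). Of the 24 genes with the largest SD, 12 remained by the median absolute deviation and 18 to 21 with a liver left out. All other alternatives kept each count within 1.5 times. All 24 genes called with Sqle and all 908 called with Cyp8b1 kept their direction wherever they were tested. The alternatives reuse livers in which the genes were called, so kept directions are no independent evidence. No paired analysis was possible because only 1 group was used. With 8 livers, exact permutation cannot give a p under 2.48e-05.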
